A study of Mus musculus with 6 samples.

Results

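The genes described here are targets of the hypoxia-inducible factors (HIF) and oxygen-dependent hydroxylases, 10 of the 19057 genes with a named probe: Ankrd37, P4ha1, P4ha2, Egln1, Egln3, Bnip3, Bnip3l, Car9, Ndrg1 and Kdm3a. They were taken by name, with earlier results of these data known, so shares set beside all genes are descriptions. Every probe annotated to them was used, 23 of the 45281 probes on the array. Of these, 17 probes of 9 genes lay above background on at least 3 of the 6 arrays and were tested. Bnip3 was not. RNA came from MC38 cells, a mouse colon carcinoma line, sorted by flow cytometry from livers in which the cells had formed metastases after injection into the spleen. All host mice carried the CD11bDTR transgene, in which the CD11b promoter, active in myeloid cells such as macrophages, monocytes and neutrophils, drives a receptor for diphtheria toxin (DT). The control group of 3 samples received PBS and the other group of 3 received DT, both into the peritoneum on days 7 and 9 after the tumour cells, with collection of the livers on day 10. No group received DT without the transgene, so an effect of the toxin itself and an effect of losing myeloid cells cannot be told apart. The ages of the mice are not in the labels. Whether each sample stands for a mouse of its own is not in the labels either, and the p-values therefore rest on a spread among samples that may be technical.

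In cells with enough oxygen, the Egln prolyl hydroxylases mark the HIF alpha subunits, which are then bound by the Vhl ubiquitin ligase and degraded. When oxygen is short the marking slows, HIF alpha pairs with Arnt, and the pair binds hypoxia response elements, whose core is ACGTG or GCGTG, near genes of glycolysis, collagen modification, pH control and mitochondrial removal. Egln3, P4ha1, P4ha2 and Kdm3a are themselves HIF targets and belong to the 2-oxoglutarate-dependent oxygenases, which use oxygen as a substrate. Solid tumours often hold poorly supplied zones where these genes are active.

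The promoters of the 4 genes whose PBS and DT values did not overlap on the probe used for the gene are shown first, to let the position of the HIF core be seen. They are RefSeq sequences of the mouse build GRCm38.p6, each covering 250 bases before to 50 after the transcription start, written 5′ to 3′ on the strand of the gene. Capitals mark ACGTG or GCGTG on either strand, so that the reverse forms appear as CACGT and CACGC. Ankrd37 lies on the minus strand at chr8:45999801-46000100, P4ha2 on the plus strand at chr11:54100674-54100973, P4ha1 on the plus strand at chr10:59323046-59323345 and Egln3 on the minus strand at chr12:54203825-54204124.
Ankrd37: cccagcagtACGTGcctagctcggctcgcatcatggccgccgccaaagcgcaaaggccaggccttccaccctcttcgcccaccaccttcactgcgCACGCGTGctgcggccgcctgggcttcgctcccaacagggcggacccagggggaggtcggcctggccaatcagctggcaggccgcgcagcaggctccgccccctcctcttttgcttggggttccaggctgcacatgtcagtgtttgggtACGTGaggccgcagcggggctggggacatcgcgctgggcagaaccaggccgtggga
P4ha2: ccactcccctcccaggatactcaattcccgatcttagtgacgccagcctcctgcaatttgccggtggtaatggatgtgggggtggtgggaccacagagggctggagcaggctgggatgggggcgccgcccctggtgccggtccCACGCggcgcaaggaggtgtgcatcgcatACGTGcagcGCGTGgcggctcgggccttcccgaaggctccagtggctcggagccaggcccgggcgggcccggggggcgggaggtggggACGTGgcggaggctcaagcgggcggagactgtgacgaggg
P4ha1: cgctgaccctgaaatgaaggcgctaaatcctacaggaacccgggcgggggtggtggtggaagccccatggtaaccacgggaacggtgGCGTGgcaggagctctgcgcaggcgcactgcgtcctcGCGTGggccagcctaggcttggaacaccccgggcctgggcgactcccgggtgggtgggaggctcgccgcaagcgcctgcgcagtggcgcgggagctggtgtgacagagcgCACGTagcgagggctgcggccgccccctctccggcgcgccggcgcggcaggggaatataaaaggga
Egln3: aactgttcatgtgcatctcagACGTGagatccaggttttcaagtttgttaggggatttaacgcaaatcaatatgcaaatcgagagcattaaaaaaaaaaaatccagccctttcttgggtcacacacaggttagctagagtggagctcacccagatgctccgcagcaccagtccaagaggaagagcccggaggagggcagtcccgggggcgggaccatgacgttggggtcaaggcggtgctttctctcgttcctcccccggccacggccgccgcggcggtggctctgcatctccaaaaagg

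The promoters of Ankrd37 and P4ha2 each held 4 matches, that of P4ha1 held 3 and that of Egln3 held 1. In the Ankrd37 promoter a GCGTG and its reverse form overlap in the run CACGCGTG. Promoter sequences were matched for 8 of the 10 genes, all except Bnip3l and Ndrg1, and these 8 genes had 10 promoters. A match was found in 8 of the 10 promoters, and in at least 1 promoter of each of the 8 genes. Among all 32851 promoters of the table, 43.8% held one, and 46.7% of its 27025 genes had one in at least 1 promoter. The 10 promoters described here were richer in G and C, with a median of 69.7% against 52.7% over all promoters. The part of base composition in the number of matches was not tested. P4ha1, which was higher after DT, and Ankrd37, P4ha2 and Egln3, which were lower, all held the core.

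Across the 9 genes tested, 7 were lower after DT, led by Ankrd37 at 2.99-fold, P4ha2 at 1.99-fold, Ndrg1 at 1.97-fold and Egln3 at 1.69-fold. P4ha1, at 1.45-fold, and Egln1, at 1.16-fold, were higher. None of the 9 passed an adjusted p of 0.05 in limma's moderated test over 9483 genes, in which 0.759% of all genes were called lower and 0.327% higher. At an unadjusted p under 0.05, 4 of the 9 were lower, against 11.9% of all genes, and 1 was higher, against 12%. Their median difference was -0.40 on the log2 scale, beside 0.011 over all genes tested, of which 48.7% were lower. The groups did not overlap for 3 genes lower after DT, where 14% of all genes showed this, and for 1 gene higher, where 15% did. All differences are DT minus PBS in normalized log2 signal, and a probe's signal gives no level that can be set against another probe's. In such sorted populations, fewer cells of a type and less RNA per cell cannot be told apart.

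**Figure D1:**
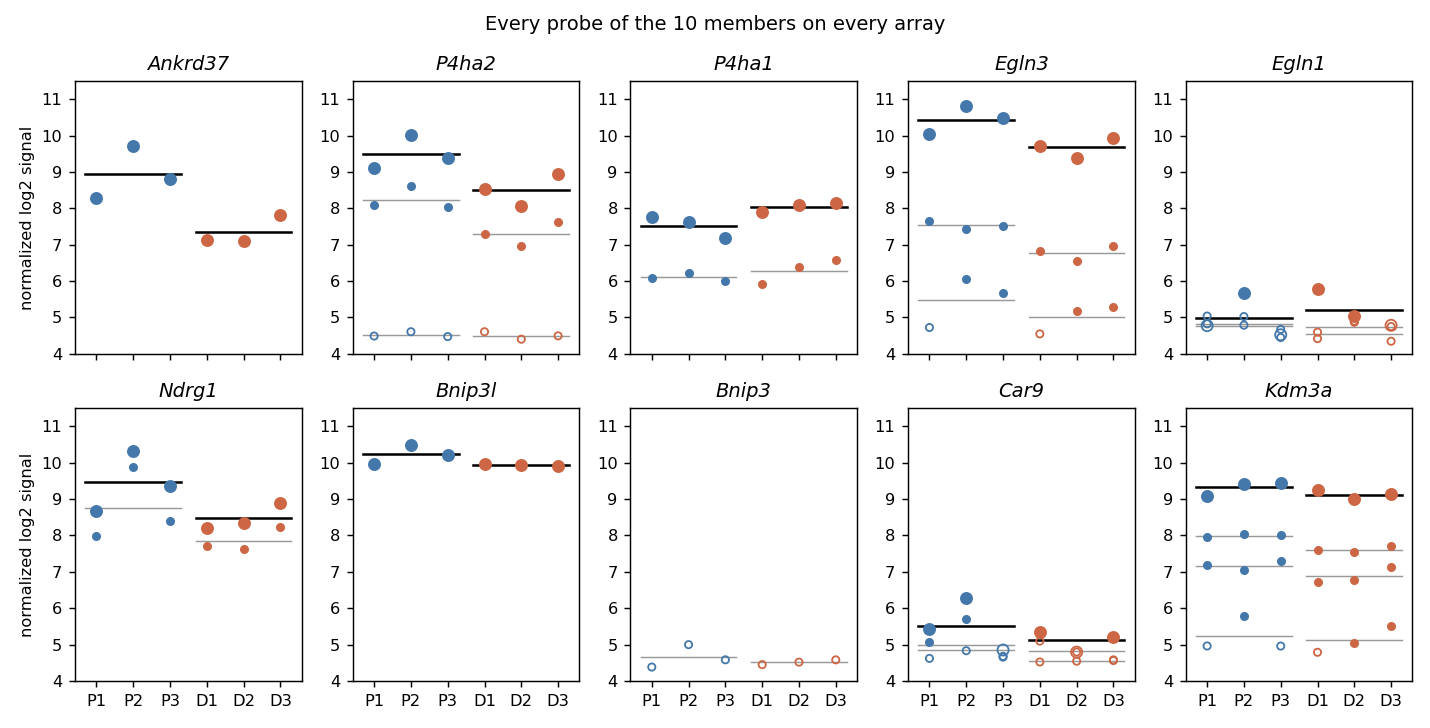
Normalized log2 signal (vertical axis) of every probe of the 10 genes on the 6 arrays, with PBS replicates as P1 to P3 in blue and DT replicates as D1 to D3 in orange. Large points are the probe used for the gene, small points its other probes, open points a detection p of 0.05 or more, and lines are group means; for Ankrd37, P4ha2 and Egln3 all large orange points lie below all blue ones, and for P4ha1 above.

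On the 6 arrays, 36.7% to 40.6% of probes lay above background, and mean signals before normalization ran from 311 on PBS replicate 2 to 503 on DT replicate 2. Correlations over genes were 0.979 to 0.989 within PBS and 0.986 to 0.987 within DT. The label of colon carcinoma cells was checked against epithelial genes, and 7 of 10 lay above background on no array, Epcam, Krt18, Krt19, Krt20, Cdx2, Vil1 and Elf3, while Krt8 lay above it on all. Markers of other cells were measured: 7 of 12 fibroblast genes lay above background on all arrays, among them Dcn, with 13.7 ± 0.21 for PBS and 13.9 ± 0.10 for DT (mean ± SD of 3 arrays each). So did 9 of 14 macrophage genes with a probe, including Laptm5, at 10.2 ± 0.79 and 8.82 ± 0.22. Itgam, the gene of CD11b itself, was above background on no array.

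Ankrd37 encodes an ankyrin repeat protein and is a direct HIF target whose own function is little known. Its single probe read 8.28, 9.72 and 8.79 in PBS replicates 1, 2 and 3, and 7.14, 7.11 and 7.81 in DT replicates 1, 2 and 3, the order kept below. All DT values lay below all PBS values, with PBS replicate 2 standing highest and DT replicates 1 and 2 close together at the bottom. The means were 8.93 ± 0.73 and 7.35 ± 0.40 (SD, n = 3 each), a difference of -1.58 (SE 0.33, 95% interval -2.32 to -0.84) with an adjusted p of 0.0509 by limma. The fit over every probe, 17759 in all, put the same probe at an adjusted p of 0.0499, so that the gene stood at the threshold. It was then the only one of the 17 probes called, where 0.895% of all probes were called lower. Among the differences of all genes, ordered from the most negative, it stood at the percentile 0.0844. The deposited signals of the probe, before any background correction or normalization, stood at 522, 558 and 593 for PBS against 221, 300 and 353 for DT, again apart. Without PBS replicate 2 the difference was -1.19, or 2.28-fold lower, with an adjusted p of 0.0712.

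The alpha subunits of collagen prolyl 4-hydroxylase, P4ha1 and P4ha2, are the catalytic chains of the enzyme that hydroxylates proline in the endoplasmic reticulum so that collagen can form a stable triple helix. They lay on opposite sides of 0. P4ha2 read 9.10, 10.02 and 9.39 in PBS and 8.52, 8.06 and 8.94 in DT, with no overlap between the groups. Its difference was -0.995 (SE 0.27, 95% interval -1.60 to -0.39), with an adjusted p of 0.0776 by limma. A second P4ha2 probe read 8.08, 8.62 and 8.03 in PBS and 7.30, 6.96 and 7.63 in DT. It too kept the groups apart, with a difference of -0.94 (SE 0.22) and an adjusted p of 0.0593 over every probe. Its last probe, ILMN_1255122, was above background on no array. The signals of the first probe before normalization, 826, 668 and 838 in PBS and 389, 470 and 631 in DT, did not overlap either.

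P4ha1 read 7.76, 7.61 and 7.17 in PBS and 7.90, 8.08 and 8.15 in DT. All DT values lay above all PBS values, though the nearest pair, PBS replicate 1 and DT replicate 1, was close. The difference was 0.53 (SE 0.18, 95% interval 0.13 to 0.94) with an adjusted p of 0.126 by limma. Its second probe read 6.10, 6.23 and 5.999 in PBS and 5.91, 6.38 and 6.57 in DT, where the groups overlapped and the difference was 0.18 (SE 0.20). Before normalization the P4ha1 signals of the first probe overlapped, at 402, 223 and 275 in PBS and 292, 475 and 418 in DT. Without PBS replicate 2 the differences were -0.74 for P4ha2 and 0.59 for P4ha1, with adjusted p of 0.130 and 0.134.

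Egln3 and Egln1 encode prolyl hydroxylases that act on HIF alpha. Egln1 is the main oxygen sensor in most cells, and Egln3 is strongly induced by HIF as part of a feedback loop. The probe used for Egln3 read 10.03, 10.82 and 10.47 in PBS and 9.73, 9.39 and 9.93 in DT. The groups did not overlap, and PBS replicate 1 and DT replicate 3 were the nearest pair. The difference was -0.76 (SE 0.22, 95% interval -1.25 to -0.27), with an adjusted p of 0.0908 by limma. A second Egln3 probe read 7.66, 7.44 and 7.51 in PBS and 6.83, 6.54 and 6.96 in DT. It gave a difference of the same size, -0.76 (SE 0.17), with an adjusted p of 0.0544 over every probe, and on this probe PBS replicate 1, not 2, was highest. Its dimmest probe, above background on 4 arrays, had a difference of -0.47 (SE 0.32) and overlapping groups. Without PBS replicate 2 the first probe stood at -0.57 with an adjusted p of 0.151 and the second at -0.82 with 0.0667.

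Egln1 was near background. The probe used read 4.77, 5.67 and 4.52 in PBS and 5.78, 5.03 and 4.78 in DT, and lay above background on 1 PBS and 2 DT arrays. Its other probes, ILMN_2617087 and ILMN_2617090, lay above background on none. The difference of 0.21 (SE 0.32) had a 95% interval of -0.50 to 0.92, so neither a fall nor a rise of moderate size could be told from no difference at this signal. Leaving out PBS replicate 2 gave 0.58, with an adjusted p of 0.246 and every DT value above both PBS values. It turned to -0.023 without PBS replicate 3 and to -0.087 without DT replicate 1.

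Kdm3a, a histone lysine demethylase of the oxygenase family that is induced by HIF, had 4 probes in the test. The probe used read 9.08, 9.42 and 9.45 in PBS and 9.24, 9.00 and 9.13 in DT. These overlapped, and the difference was -0.20 (SE 0.16, 95% interval -0.56 to 0.16) with an adjusted p of 0.488 by limma. A dimmer probe, ILMN_3043245, read 7.95, 8.03 and 8.002 in PBS and 7.60, 7.53 and 7.70 in DT, apart on every array, with a difference of -0.38 (SE 0.15) and an adjusted p of 0.169. The remaining probes had differences of -0.29 (SE 0.18) and -0.11 (SE 0.26), the latter above background on only 3 arrays. All 4 were below 0 over the 6 arrays and none passed the test. Without PBS replicate 2 the probe used was at -0.15 and the next ones at -0.37 and -0.36, while the dimmest, ILMN_2556191, was at 0.17.

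Ndrg1 encodes a cytosolic stress protein that hypoxia and iron shortage induce. It read 8.68, 10.33 and 9.36 in PBS and 8.19, 8.35 and 8.90 in DT. DT replicate 3 lay above PBS replicate 1, and PBS replicate 2 stood far above the rest. The difference was -0.98 (SE 0.36, 95% interval -1.77 to -0.18) with an adjusted p of 0.143 by limma, and -0.54 with 0.244 without PBS replicate 2. The second probe read 7.98, 9.88 and 8.40 in PBS and 7.72, 7.63 and 8.22 in DT, and its difference moved from -0.90 to -0.33 when PBS replicate 2 was left out. The signals of the first probe before normalization, 645, 800 and 825 in PBS and 332, 550 and 617 in DT, did not overlap.

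Bnip3 and Bnip3l encode proteins of the outer mitochondrial membrane that recruit the autophagy machinery to mitochondria. The single Bnip3 probe was above background on no array, reading 4.38 to 4.997 in PBS and 4.45 to 4.58 in DT, and was not tested. Bnip3l was well measured, at 9.96, 10.49 and 10.22 in PBS and 9.98, 9.95 and 9.91 in DT. The DT arrays lay close together (SD 0.033) and next to PBS replicate 1, with a difference of -0.28 (SE 0.17, 95% interval -0.65 to 0.091) and an adjusted p of 0.331 by limma. It was -0.15 with an adjusted p of 0.575 when PBS replicate 2 was left out. Car9, a cell-surface carbonic anhydrase that acidifies the space outside hypoxic cells, was near background. Its best probe read 5.43, 6.27 and 4.85 in PBS and 5.36, 4.79 and 5.19 in DT, above background on 2 arrays of each group. The difference of -0.40 (SE 0.31) became -0.028 without PBS replicate 2. Its other probes, ILMN_1244145 and ILMN_2730999, were above background on 1 PBS array each.

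**Figure D2:**
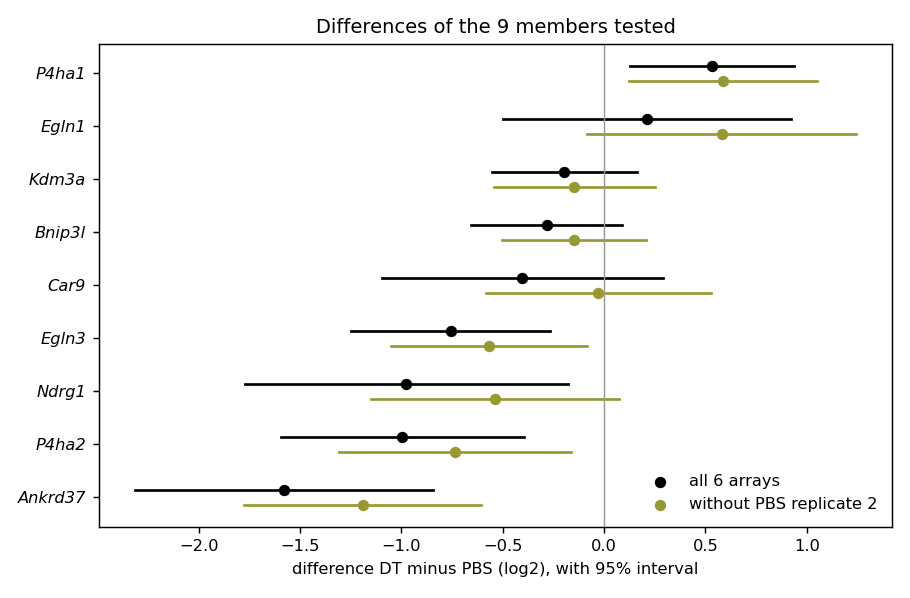
Difference DT minus PBS in normalized log2 signal (horizontal axis) of the 9 genes tested, with 95% intervals from limma, over all 6 arrays in black and without PBS replicate 2 in olive. Ankrd37, at -1.58 and -1.19, lies farthest below 0 both ways, P4ha1 lies above 0 both ways, and the Ndrg1 interval reaches 0 once that array is left out.

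Over all probes, 14 of the 17 tested were lower after DT, where 48.1% of all probes were, and 6 did so without overlap of the groups, where 13.4% of all probes did. All 5 genes with several tested probes had the same sign in each of them over the 6 arrays, which no longer held for Kdm3a without PBS replicate 2. Probes of a gene share the RNA and are not replicates. Without PBS replicate 2, 7 of 9 genes were again lower, where 49.8% of all genes were, 0 passed the test where 0.0316% of all genes passed in either direction, and the median difference was -0.15 beside 0.0015 over all genes. Egln1 then joined P4ha1 in lying above PBS on every DT array, where 22.4% of all genes did, and 3 genes lay below, where 23.7% did.

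PBS replicate 2 stood highest of the 6 arrays for 6 of the 9 genes, where this array was highest for 18.1% of all genes. DT replicate 2 was lowest for 5 of the 9, where it was lowest for 22% of all genes. The mean of the 9 genes, each taken from its own PBS mean, was -0.31, 0.50 and -0.19 in PBS and -0.45, -0.68 and -0.35 in DT. The DT arrays were thus lower than every PBS array, but DT replicate 3 and PBS replicate 1 were close. On the probe used for each gene, the SD was larger in PBS than in DT for 9 of 9 genes, where this held for 54.3% of all genes. The median ratio was 1.85 beside 1.09. Further tested probes were divided. The SD was larger in DT on ILMN_1231847 of Egln3 (0.12 in PBS, 0.21 in DT) and ILMN_1215502 of P4ha1 (0.12 and 0.34). It was larger in DT also on ILMN_2789562 of P4ha2 and on ILMN_3043245 and ILMN_3118169 of Kdm3a, and larger in PBS on the rest. Both extreme arrays were also extreme in brightness: mean signal was 473, 311 and 449 in PBS and 363, 503 and 436 in DT. In the signals as deposited, PBS replicate 2 was highest for 0 of the 9 genes, against 6 after background correction and normalization. In those signals, 4 of the 9 genes, Ankrd37, P4ha2, Ndrg1 and Car9, lay lower in DT without overlap, where 1.1% of all genes did, though the margin for Car9 was a fraction of a signal unit. The part of array brightness in these results was not tested.

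Of the summed markers of other cells, those of neutrophils and fibroblasts did not overlap between the groups, and the other sums did. The summed signal of 14 macrophage genes was 5558, 5170 and 2344 in PBS and 1941, 1981 and 2403 in DT, while Clec4f, Cd163, Timd4 and Itgam were above background on no array. PBS replicate 3 lay within the DT range of this sum, and its values for the 9 genes are those given above. All 9 macrophage genes tested were lower after DT, where 48.7% of all genes were. Their median was -0.96, or -0.63 without PBS replicate 2. For 4 of these macrophage genes the groups did not overlap, where 14% of all genes lay lower so, and 0 passed the test. The sum of 10 neutrophil genes ran from 1493 to 2212 in PBS and from 2634 to 3936 in DT, with Mmp8 and Cxcr2 above background on no array, and S100a8, a neutrophil alarmin, rose by 2.18 (SE 0.35) with an adjusted p of 0.0417 by limma, which was 0.0642 without PBS replicate 2. Of the 6 neutrophil genes tested, 4 were higher and 2 lower, the latter being Csf3r, at -0.50 without overlap of the groups, and Mmp9, at -0.25, neither of which passed the test. The sum of 12 fibroblast genes was 31827, 33863 and 23094 in PBS and 36860, 37632 and 35282 in DT, with Tagln, Des, Reln and Lrat above background on none. Dcn and Col3a1, at DT means of 13.9 and 13.5, made up the largest parts of this sum. Of the 8 fibroblast genes tested, 6 were higher and 2 lower, the latter being Col1a1, at -0.14, and Col1a2, at -0.15. Groups were apart for 3, all higher, where 15% of all genes were, and 0 passed the test. The hepatocyte sum was 702 to 1066 in PBS and 566 to 748 in DT, with Alb and 6 other genes of 10 above background on none. Arg1, at means of 9.12 in PBS and 8.52 in DT, made up the largest part of this sum. Of the 3 tested, Arg1 was at -0.60, Apoa2 at 0.68 and Ttr at 0.35, none of which passed. The erythroid sum of 3 genes was 115 to 172 and 89.0 to 133, with Hba-a1 above background on all arrays and Slc4a1 on none. Of 10 endothelial genes, whose sum was 258 to 271 in PBS and 258 to 289 in DT, 0 were above background on all arrays and 6 on none, Cdh5 and Tek among them. The epithelial sum was 284 to 312 in PBS and 287 to 306 in DT. The part of these cells in the differences was not tested.

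**Figure D3:**
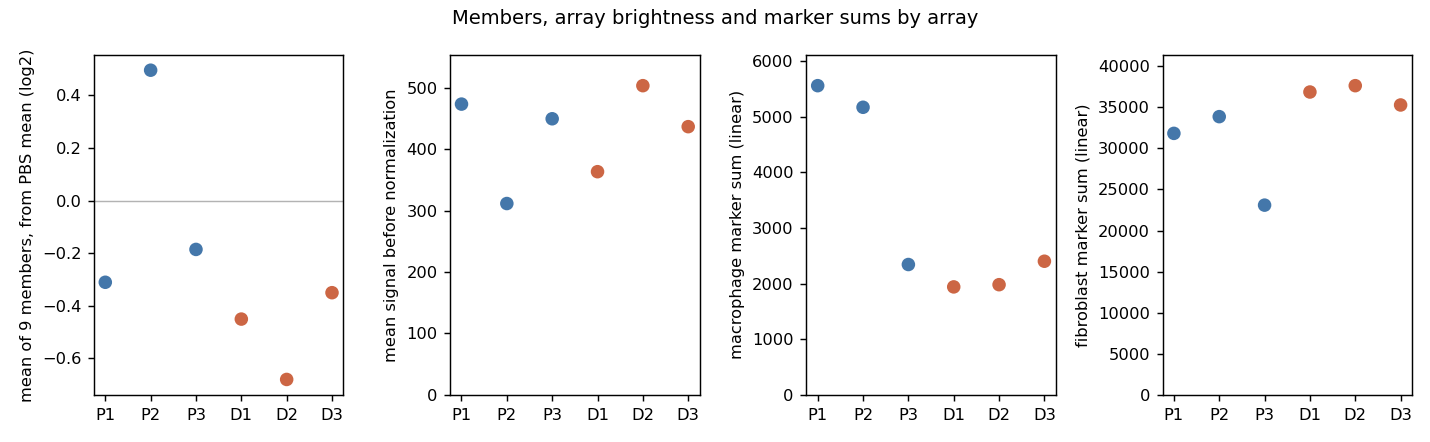
For each array (PBS as P1 to P3 in blue, DT as D1 to D3 in orange), the panels show the mean of the 9 genes from their PBS means in log2, the mean signal before normalization, and the summed linear normalized signals of the macrophage and fibroblast marker lists. PBS replicate 2 has the highest mean of the genes, 0.50, and the dimmest array, 311, and PBS replicate 3 has a macrophage sum of 2344, within the DT range.

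Among themselves, the genes of this group mostly moved together over the 6 arrays, as described by Pearson correlations of points that share the array's brightness and normalization. Of 36 pairs, 28 were positive and 12 were over 0.8, with a median of 0.65. Taken over both groups, these correlations include the difference between DT and PBS, and the share of all gene pairs so correlated was not computed. Egln3, P4ha2, Ndrg1 and Bnip3l correlated with the mean of the others at 0.91, 0.92, 0.92 and 0.90, Ankrd37 at 0.88, Car9 at 0.79 and Kdm3a at 0.71. Egln1, at 0.18, and P4ha1, at -0.56, stood apart. Of 9474 other genes, those whose 6 values were most like the mean of the 9 were Atpaf2, Arrb2, Chkb, Pkm, Clk3 and Prkab1, with correlations of 0.985 to 0.995. Pkm encodes the glycolytic pyruvate kinase, and its difference was -0.41 (SE 0.23), or -0.13 without PBS replicate 2. The most opposed were Sub1, Ifnb1, Hspa2 and Ccdc127, at -0.995 to -0.999. PBS replicate 2 was the highest array for every one of the most alike genes and the lowest for every one of the most opposed. All their differences were nearer to no difference without that array, as for Atpaf2, from -0.50 to -0.21, and Sub1, from 0.61 to 0.31. None of these 10 genes passed the test.

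Genes around the pathway gave a mixed picture, and in every list below 0 genes passed the test, beside 1.09% of all genes in either direction. At an unadjusted p under 0.05, 11.9% of all genes were lower and 12% higher. The genes named from each list are those with its smallest p, a choice that favours groups without overlap. Of 15 measured HIF subunits and their regulators, 6 were lower and 9 higher, with a median of 0.051, and 0 were lower and 3 higher at an unadjusted p under 0.05. Egln2, the remaining prolyl hydroxylase of the family, was at 0.40 (SE 0.14, adjusted p 0.136), Cited2, which competes with HIF for its coactivators, at 0.41 (SE 0.16, adjusted p 0.161) and Eloc, a subunit of the Vhl ligase, at 0.39 (SE 0.16, adjusted p 0.184), all by limma. Cul2, the scaffold of that ligase, was at 0.41 with overlapping groups. Each of the first 3, and no other of the 15, lay above PBS on every DT array, where 15% of all genes did.

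Of 18 further HIF targets, 14 were lower and 4 higher, with a median of -0.40, close to that of the 9 genes, and 6 were lower and 0 higher at an unadjusted p under 0.05. Gbe1, the glycogen branching enzyme, read 6.44, 6.42 and 6.31 in PBS and 5.17, 5.61 and 5.90 in DT. Its difference was -0.83 (SE 0.19) with an adjusted p of 0.0576 by limma, and -0.84 without PBS replicate 2. Slc2a1, the glucose transporter GLUT1, was at -0.997 (SE 0.31, adjusted p 0.103), with overlapping groups. The glycolytic enzymes Tpi1, at -0.43 (SE 0.16), and Aldoa, at -0.63 (SE 0.24), were lower without overlap, with adjusted p of 0.154 and 0.155 by limma. With Gbe1, 3 of the 18 lay lower without overlap, where 14% of all genes did. The median of the list was -0.18 without PBS replicate 2, with 3 lower and 2 higher at an unadjusted p under 0.05.

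Of 32 further 2-oxoglutarate-dependent oxygenases, 19 were lower and 13 higher, with a median of -0.086, and 5 were lower and 1 higher at an unadjusted p under 0.05. Kdm5a, a histone lysine demethylase, read 8.60, 7.86 and 8.15 in PBS and 6.79, 7.02 and 7.63 in DT, at -1.06 (SE 0.25) with an adjusted p of 0.0576 by limma. Riox1, a ribosomal oxygenase, was at -0.58 (adjusted p 0.0891), Jmjd6 at -0.51 (adjusted p 0.105) and Plod3, a lysyl hydroxylase of collagen, at -0.41 (adjusted p 0.153), also by limma. All 4 were among the 9 of the 32 that lay below PBS on every DT array, where 14% of all genes did. Another 3 of the 32 lay above, where 15% of all genes did. In contrast to P4ha2 and Ndrg1, the differences of Kdm5a, Riox1 and Plod3 were no smaller without PBS replicate 2, at -1.24, -0.67 and -0.43, and that of Jmjd6 was -0.45.

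The mitophagy and autophagy genes lay the other way, with 4 of 17 lower and 13 higher and a median of 0.20, and 1 was lower and 4 higher at an unadjusted p under 0.05. Map1lc3a, which coats the autophagosome, read 7.30, 7.52 and 7.12 in PBS and 8.18, 8.27 and 7.70 in DT. Its difference was 0.73 (SE 0.19) with an adjusted p of 0.0693 by limma. Fundc1, a mitophagy receptor of the outer mitochondrial membrane like Bnip3l, was at 0.71 (SE 0.20, adjusted p 0.0861), and Gabarap, at 0.56, overlapped between the groups. Fkbp8, also a mitophagy receptor, was at -0.39 (SE 0.14, adjusted p 0.145). The median of the list was 0.28 without PBS replicate 2. Of the carbonic anhydrases and pH regulators only 3 of 17 were measured, Car13 at -0.18, Car5b at 0.075 and Slc4a4 at 0.021, and of the other NDRG genes only Ndrg3, at 0.21. At an unadjusted p under 0.05 these last lists had 0 genes in either direction.

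**Figure D4:**
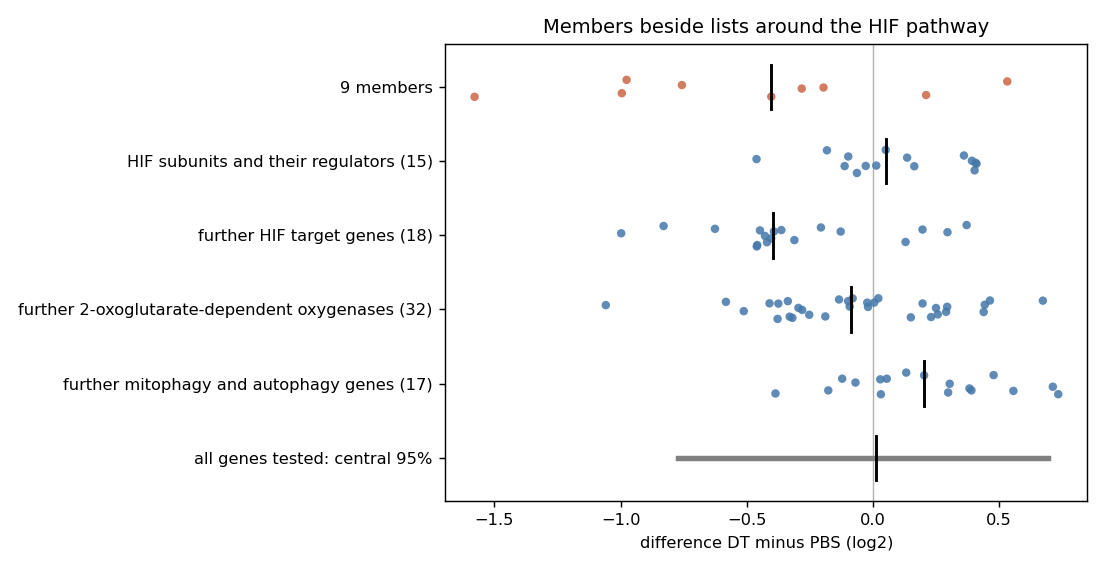
Difference DT minus PBS in normalized log2 signal (horizontal axis) of each measured gene, by list, with the number measured in parentheses and black lines at the medians; vertical scatter within a list carries no value. The grey bar spans the central 95% of all 9483 genes, from -0.77 to 0.69, and the medians of the 9 genes and of the further HIF targets, both -0.40, lie left of the all-gene median of 0.011.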

How the data were processed

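RNA of 3 PBS and 3 DT samples was labelled in a single colour and each hybridised to 1 Illumina bead array, per the labels' protocols. Per the file headers, the authors deposited for each probe and array a mean bead signal, a linear intensity that the values show to be neither background-subtracted nor normalized, and a detection p-value. Beside these stands a normalized log2 value, deposited as well, whose making is not given in the sources used here and whose column medians were 4.79, 4.95, 4.84 in PBS and 4.88, 4.75, 4.81 in DT. It keeps the order of the signals on each array and served as an alternative. The sort gate, scanner and genome build are likewise not given, and the number of arrays limits the precision.

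Signals were processed in R 4.3.3 with the neqc function (limma 3.58.1): background estimated from the detection p-values, an offset of 16, quantile normalization and log2. The offset shrinks differences of dim probes, and quantile normalization takes out any shift common to all genes. A probe was kept where its detection p was under 0.05 on 3 or more arrays (17759), and the brightest probe with 1 annotated gene stood for each gene (9483). Of 45281 probes, 34885 had 1 gene, 18 several and 10378 none named by the platform's annotation. The groups were compared by lmFit and eBayes, two-sided, with Benjamini-Hochberg adjustment over all genes, or over all probes for further probes. With 3 arrays against 3, an exact permutation test cannot give a p below 0.1. The genes and lists were chosen with earlier results of these data known, and list counts and medians are descriptions. The text names all 10 genes and the 4 with the smallest p of each list around the pathway. It also names the 6 most alike and 4 most opposed genes, and genes of marker lists, those bright or past the threshold among them. Alternatives covered background correction, normalization, the deposited values, filters, the probe rule, a replicate block, variance models, the threshold and each array left out. The comparison of DT with PBS was tested on simulated data of 9483 genes, in which log2 changes of 0.5, 1 and 2 were recovered in 7 of 71, 38 of 57 and 71 of 72 genes. Of its 125 calls, 9 were unchanged genes. The simulated noise was independent between genes and arrays, with no deviation of a whole array, so these rates need not hold for the real arrays. Plots were made in matplotlib 3.10.9.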

Additional observations from a re-analysis of the deposited data

How the results depend on the processing

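Between 6 and 8 of the genes tested were lower after DT in all 20 alternatives, and the median over them ran from -0.76 to -0.13. The genes tested numbered 7 with a detection p under 0.01, 10 without the filter and 9 otherwise. The replicate block, the intensity trend, the unmoderated model and the looser threshold leave the differences unchanged by construction. Their equal counts of lower genes and equal medians are therefore no further evidence. The count of these genes past the threshold, 0 in the fit as reported, was 3 with an offset of 50, 2 without background correction, 2 with the deposited log2 values, 1 with a detection p under 0.01, 3 with an intensity trend, 4 with array weights and 3 at an adjusted p under 0.1. It was 1 with quantile normalization of log2 values, an alternative chosen after seeing the data, as was that with no normalization. With each array left out it was 0 to 1, being 1 (Ankrd37) without PBS replicate 1 and without DT replicate 3. Ankrd37 passed in 10 of the 20 alternatives, P4ha2 in 6, Egln3 in 4 and P4ha1 in 1 (array weights), each count including any pass at the looser threshold. The adjusted p of Ankrd37 ran from 0.0057 with the intensity trend to 1 with no normalization.

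The median over the 9 genes was -0.76 with a detection p under 0.01, where only 7 were tested, and -0.74 to -0.15 with each array left out, the ends being those that dropped PBS replicate 3 and PBS replicate 2. The difference of Kdm3a was 0.0032 when arrays were scaled to one median, a setting that put all genes at a median of 0.17, so that Kdm3a lay below it. That of Egln1 ran from -0.087 to 0.58 with each array left out, being below 0 without DT replicate 1 and, at -0.023, without PBS replicate 3. The cause of these changes was not tested.

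The number of all genes past the threshold, 103 (72 lower, 31 higher), was 654 with an offset of 50, 558 without background correction, 264 with a detection p under 0.01, 772 with an intensity trend, 1059 with array weights, 755 at an adjusted p under 0.1 and 166 with quantile normalization of log2 values. It was 27 (7 lower, 20 higher) with median scaling and 313 (162 lower, 151 higher) with the deposited values. By limma it was 0 without the filter, in the unmoderated model and with no normalization, with 2942, 1781 and 144 genes at an unadjusted p under 0.05. With each array left out it ran from 0 to 389: dropping PBS replicate 1 gave 63 and dropping PBS replicate 2 gave 3. Dropping DT replicate 1 gave 4, dropping DT replicate 2 gave 0 (1299 at an unadjusted p under 0.05) and dropping DT replicate 3 gave 389. The labels do not say whether the replicate numbers pair the samples. Deviations of same-numbered arrays from their group means correlated at -0.10, -0.18 and 0.03. Such deviations also carry effects of single arrays, so they do not settle the question. With the replicate number as a block 30 genes and 0 of the 9 passed, and the adjusted p of Ankrd37 was 0.0764. Egln1 and Car9 lay near background, so their differences are bounded only loosely.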
